A study of Sus scrofa with 12 samples.

Results

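ENSSSCG00000044834 is an RNA assigned to an interval of pig chromosome 7 that RefSeq annotates with long noncoding RNA genes, and was chosen from the RNAs that GRID-seq found on the chromatin of skeletal muscle. It was selected because its DNA contacts lay mostly on other chromosomes, so its numbers of bins are given here as a description. It is 1 of 571 and 681 RNAs listed in the LW libraries versus 1 of 519 and 649 in the MS libraries. Its entries comprise 237150, 203099, 47717 and 46333 DNA bins of 1 kb in LW replicates 1 and 2, then MS replicates 1 and 2.

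The tissue was longissimus muscle of 2-week-old piglets of Large White (LW), a commercial lean breed, and Meishan (MS), a Chinese local breed. No treatment or genetic change was given to either breed. GRID-seq was run in 2 libraries per breed, and BL-HiChIP in another 2 libraries per breed, the latter for the acetylated histone H3K27ac of active regulatory elements. The study's methods name male piglets, 2 in number, and libraries made in duplicate, without saying whether that number is per breed or in all. The replicates of a breed may thus come from the same animal, and the spread between them may be technical.

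Long noncoding RNAs can remain on chromatin after transcription. Most chromatin RNAs lie around the gene they come from, and some spread along their own chromosome (cis). A few reach other chromosomes (trans), among them spliceosomal RNAs and RNAs that mark nuclear bodies. GRID-seq ligates RNA to nearby DNA through a linker, so each RNA receives a count of its reads and a list of DNA bins in which its signal stands above the background of the library. In bulk tissue, fewer cells of a type and less RNA per cell cannot be told apart.

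The 4 GRID-seq libraries held between 7172517 and 9943666 reads on listed RNAs. Of 11 skeletal muscle markers, 5 or 6 were among the listed RNAs in each library, including TTN, NEB, CKM, MYH7 and TNNT3, whereas MYH1, MYH2, MYH4, ACTA1 and RYR1 were not listed. None of the adipocyte, endothelium, immune cell, blood, cardiac muscle or liver markers was listed in any library. Since muscle genes such as ACTA1 were not listed either, a marker missing from the lists does not show that a cell type was absent.

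The gene lies at chr7:10797875-10925845 (Sscrofa11.1) on the minus strand and spans 128 kb. In the RefSeq annotation the interval overlaps 3 lncRNA genes. LOC106504325 at chr7:10796441-10905531 shares 108 kb with it, LOC110261780 shares 3.38 kb and LOC102163473 shares 2.47 kb. The nearest protein-coding genes are CD83, a surface glycoprotein of dendritic cells, 412 kb below the interval, and JARID2, a cofactor of Polycomb repressive complex 2, 432 kb above it. No other RNA transcribed from the interval was listed in any of the 4 libraries.

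The RNA was one of the most abundant chromatin RNAs of the muscle, and its reads were higher in MS. It had 906421 and 1003089 reads in the LW libraries versus 1393716 and 1673556 in the MS libraries. Both MS libraries stood above both LW libraries. These were 11.08% and 10.09% of all reads on listed RNAs in LW versus 19.4% and 17.8% in MS, so that the RNA ranked second in both LW libraries and first in both MS libraries. After scaling, MS exceeded LW 1.80-fold, a log2 LW over MS difference of -0.85 with an SE of 0.02 (edgeR quasi-likelihood test with Benjamini-Hochberg adjustment over 308 RNAs, adjusted p = 4.77e-06). In the same test 42.5% of the RNAs were higher in MS and 44.2% higher in LW, and this RNA ranked 49 by p-value.

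The lists give 1 number of reads for the whole interval and no position within it, and the RNA had no listed bin at its own gene. Whether all of these reads came from this locus was not tested, and the values per kb rest on the interval as listed. Per kb of gene, introns included, its reads were 7083 and 7838 in LW versus 10891 and 13078 in MS. The corresponding values of TTN, the mRNA of the sarcomere spring protein titin, were 3332 and 3704 in LW versus 2543 and 3028 in MS. Those of the lncRNA ENSSSCG00000048856 of chromosome 2 were 39628 and 43812 in LW versus 40926 and 48598 in MS. Thus on the scale of reads per kb, ENSSSCG00000044834 lay above TTN and below ENSSSCG00000048856 in each of the 4 libraries.

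The bins went the other way. On chromosomes other than 7 the RNA had 223431 and 191755 bins in the LW libraries versus 44248 and 42885 in the MS libraries. The breeds did not overlap, and the LW mean was 4.76-fold the MS mean in the measure by which the RNA was chosen. These bins covered 9.84% and 8.45% of the other chromosomes in LW against 1.95% and 1.89% in MS. Per 1000 reads of the RNA there were 246 and 191 bins in LW versus 31.7 and 25.6 in MS, a 7.63-fold difference of the means.

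**Figure D1:**
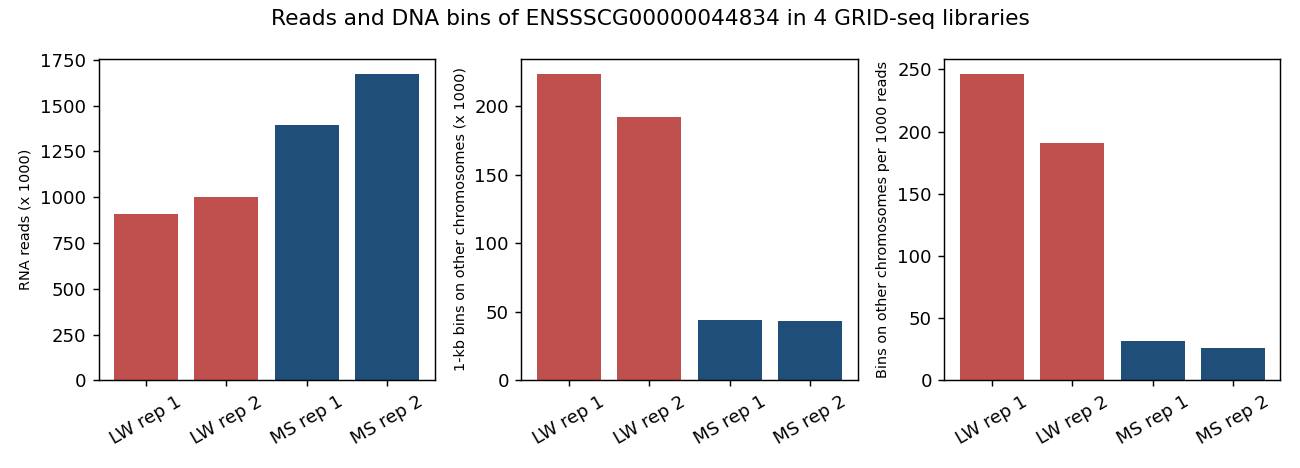
Bars give the RNA reads (in units of 1000), the 1-kb bins on chromosomes other than 7 (in units of 1000) and the bins per 1000 reads of ENSSSCG00000044834 in LW replicates 1 and 2 (red) and MS replicates 1 and 2 (blue). Reads were higher in both MS libraries, whereas bins and bins per 1000 reads were higher in both LW libraries.

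Among all RNAs it ranked first by bins on other chromosomes in both LW libraries, with 47.4% and 36.8% of all such bins. In the MS libraries it ranked 4 and 5, with 8.09% and 6.19%. The TTN RNA had more bins in MS. TTN had 108159 and 88043 trans bins in LW versus 191138 and 156654 in MS, while its reads were 914086 and 1016278 in LW versus 697633 and 830738 in MS. Reads and bins of TTN were therefore ordered by breed in the reverse of ENSSSCG00000044834.

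The listed bins were not scattered singly but came in unbroken runs, called islands here. There were 6820 and 5804 islands on other chromosomes in LW versus 1666 and 1628 in MS. The shortest was 22 kb in all 4 libraries, the median length was 29 kb in both LW and 25 kb in both MS libraries, and the longest was 140 kb. TTN and ENSSSCG00000048856 had islands of similar median length, 23 to 28 kb. Adjacent bins thus share their signal, and an island rather than a bin is the smallest unit of contact in these lists. Counted as islands, the LW mean was 3.83-fold the MS mean.

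The height of the islands differed little. The median peak signal was 1.18 and 1.19 in LW versus 1.08 and 1.05 in MS, with no overlap between breeds. A peak over 2 was reached by 156 and 157 islands in LW, or 2.29% and 2.71%, and by 30 islands in each MS library, or 1.80% and 1.84%.

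ENSSSCG00000044834 had no listed bin at its own gene. Within 10 kb of the gene the number of bins was 0 in each of the 4 libraries. Below the gene the nearest bin of chromosome 7 was 931, 1076, 969 and 6786 kb away in LW replicates 1 and 2, then MS replicates 1 and 2. Above it the nearest bin was 3353, 173, 111 and 897 kb away. Below the gene the empty stretch was thus at least 931 kb long in each library, while above it the length varied widely.

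A missing local signal was uncommon. Only 11, 12, 10 and 8 RNAs lacked a bin within 10 kb of their gene, which is 1.93%, 1.76%, 1.93% and 1.23% of the RNAs of the respective libraries. ENSSSCG00000044834 had the most reads among them in each library. Apart from unnamed transcripts, the RNAs without local bins in all 4 libraries were ENSSSCG00000044834, ENSSSCG00000044874 and 2 copies of U5, a spliceosomal small nuclear RNA. U12, of the minor spliceosome, lacked local bins in 3 libraries, and a copy of U4 and the RNA of nuclear RNase P, which trims tRNA precursors, lacked them in 2. These were shorter lists, with at most 635 bins for U5 and 95 for U12. Longer lists without local bins occurred as well. In each library the next such RNA by reads was an unnamed transcript, with 1263 and 1557 bins in LW versus 11859 and 23501 in MS. Another copy of U4 had 4186 bins in LW replicate 1, and DSC2 had 4560 in MS replicate 1. Each of these lists was shorter than that of ENSSSCG00000044834 in the same library. By contrast TTN had 493, 537, 500 and 513 local bins, and ENSSSCG00000048856 had 26 in each library.

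The DNA of the gene could be captured for other RNAs in 3 of the 4 libraries. Bins inside the interval were listed for RNAs that included MYL1, RORA and ZBTB16 in LW replicate 1, and for ENSSSCG00000038561, ENSSSCG00000048856, MBNL1 and MLIP in LW replicate 2. In MS replicate 2 they were listed for MLIP, PDK4 and U4. They covered 48, 48 and 45 of the 129 bins of the interval in these libraries. No RNA was listed there in MS replicate 1.

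On the rest of chromosome 7 the RNA was not depleted. It had 13719 and 11344 bins in LW versus 3469 and 3448 in MS, or 11.3%, 9.31%, 2.85% and 2.83% of the chromosome. Relative to the mean density on the other chromosomes this was 1.14 and 1.10 in LW versus 1.46 and 1.50 in MS. Bins on other chromosomes made up between 92.6% and 94.4% of its list.

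Over the other 18 chromosomes the LW bins were spread almost evenly, while the MS bins followed gene content. On chromosome 12, which has the most genes per Mb, 10.6% and 8.81% of the chromosome was listed in LW, 1.08 and 1.04 times the library mean. In MS 7.34% and 6.88% was listed, 3.77 and 3.64 times the library mean. Chromosome 12 thus took 2.92% and 2.83% of the trans bins in LW versus 10.2% and 9.88% in MS. On chromosome 11, one of the most gene-poor, the relative density was 0.96 and 1.09 in LW against 0.46 and 0.38 in MS.

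Across the 18 chromosomes Pearson's r between bin density and RefSeq genes per Mb was 0.17 and 0.26 in LW versus 0.88 and 0.88 in MS, with Spearman's rho of 0.16 and 0.31 in LW versus 0.81 and 0.90 in MS. Without chromosome 12 Pearson's r was 0.15 and 0.33 in LW versus 0.77 and 0.76 in MS. These are descriptions over chromosomes of the same library, which are not independent samples. The X chromosome was low in both breeds, with relative densities of 0.18 and 0.15 in LW versus 0.14 and 0.08 in MS. TTN was low there too, at 0.11, 0.10, 0.28 and 0.23.

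**Figure D2:**
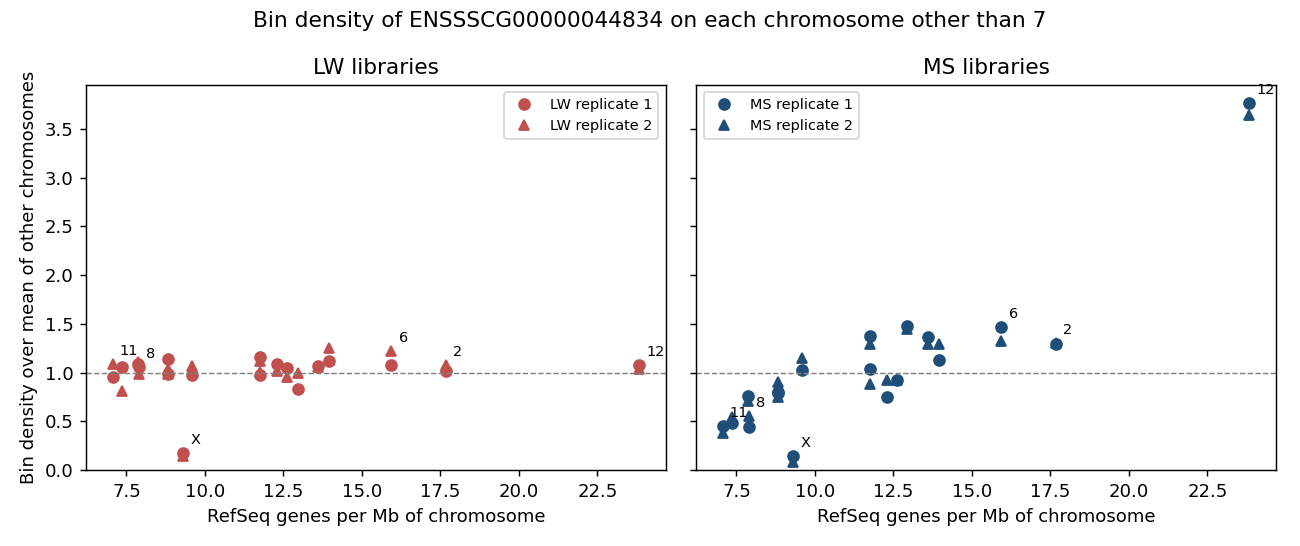
Each point is a chromosome other than 7, with its RefSeq genes per Mb on the x axis and the density of ENSSSCG00000044834 bins relative to the mean of these chromosomes on the y axis, circles for replicate 1 and triangles for replicate 2 (LW left, MS right). The LW points lie near 1 except for the X chromosome, and the MS points rise with gene content up to 3.77 on chromosome 12.

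Within chromosomes the breeds stood on opposite sides of the genome average. In 1-Mb windows without a RefSeq gene 18.98% and 20.22% of the sequence was listed in LW, and 0.676% and 0.955% in MS. In windows of over 20 genes the shares were 3.92% and 4.14% in LW versus 3.36% and 2.74% in MS. From gene-free to gene-dense windows LW coverage thus went from 1.93 and 2.39 times to 0.40 and 0.49 times its library mean. MS coverage went from 0.35 and 0.51 times to 1.73 and 1.45 times. The coverage of the breeds was far apart in gene-poor windows and of similar size in gene-dense ones.

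**Figure D3:**
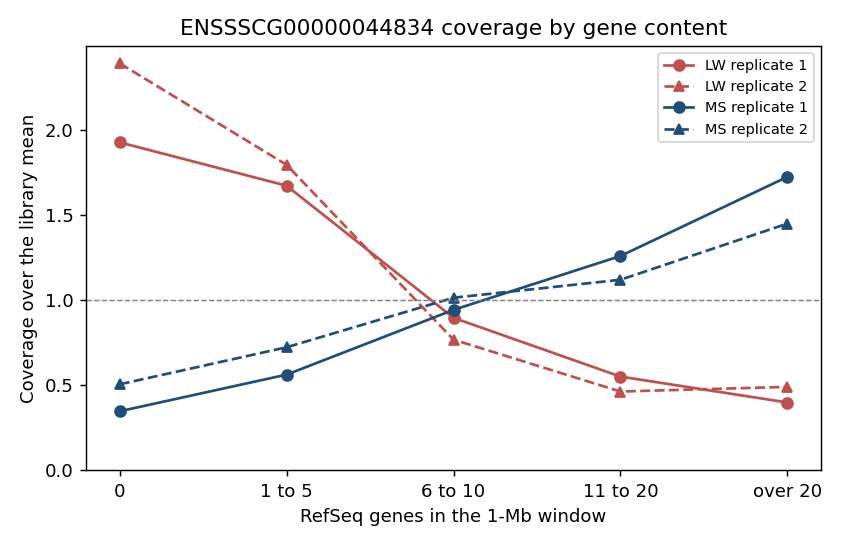
The x axis groups the 2276 windows of 1 Mb on other chromosomes by the number of RefSeq genes, and the y axis gives the coverage by ENSSSCG00000044834 bins relative to the mean of each library (red LW, blue MS, solid replicate 1, dashed replicate 2). The LW lines fall with gene content and the MS lines rise.

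The same contrast appeared at single elements. Sequence within 1 kb of a gene end made up 5.85% of the other chromosomes. It held 3.71% and 3.61% of the LW bins and 11.4% and 10.5% of the MS bins. This was 0.633 and 0.617 times the genome share in LW versus 1.95 and 1.79 times in MS, without overlap (exact permutation p = 0.333, the smallest that 2 libraries against 2 allow). Gene bodies held 47.8% and 45.9% of the LW bins and 66.2% and 63.6% of the MS bins, against 56.8% of the genome.

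Gene deserts, taken as sequence over 100 kb from any gene, held more of the bins in LW than in MS. They made up 12.1% of the other chromosomes and held 23.1% and 25.8% of the bins in LW but 6.12% and 6.86% in MS. Relative to the genome this was 1.90 and 2.13 times in LW versus 0.504 and 0.565 times in MS.

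H3K27ac loop anchors showed the largest ratio between breeds of these 4 kinds of place. Anchors of loops called in either library of the breed covered 12.5% of the other chromosomes in LW versus 10.4% in MS. They held 3.78% and 4.71% of the LW bins, 0.303 and 0.377 times the genome share. In MS they held 23.0% and 20.1% of the bins, 2.21 and 1.93 times the genome share. Against the anchors of the other breed the ratios were 0.293 and 0.384 in LW versus 2.14 and 1.85 in MS, so exchanging the loop lists left LW below 1 and MS above it.

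The difference was at least as large in lists of equal length. With the 1628 islands of highest peak in each library, an alternative chosen after seeing the data, gene deserts were at 2.11 and 2.35 times the genome share in LW versus 0.505 and 0.565 times in MS. Loop anchors were at 0.225 and 0.188 times in LW versus 2.23 and 1.93 times in MS. LW replicates 1 and 2 were each on the same side of 1 as in the full lists, and so were the MS replicates.

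On loop anchors, 3 other trans RNAs did not move across the genome share between breeds in this way. On chromosomes other than 2, 3, 7 and 15, the share of bins on loop anchors relative to the genome was 1.35, 1.93, 1.59 and 1.70 for TTN in LW replicates 1 and 2, then MS replicates 1 and 2. It was 2.54, 2.41, 3.50 and 2.08 for the lncRNA ENSSSCG00000048037 of chromosome 3, and 3.04, 3.08, 4.44 and 4.57 for ENSSSCG00000048856. ENSSSCG00000044834 had 0.299, 0.381, 2.22 and 1.98 on the same chromosomes. Only its LW libraries lay under 1 among these 16 values. The direction was not particular to it. On these anchors ENSSSCG00000048856 was also higher in both MS libraries, while TTN and ENSSSCG00000048037 overlapped between breeds. In gene deserts TTN had 1.05 and 0.908 in LW versus 0.488 and 0.673 in MS. There ENSSSCG00000048037 had 0.367 and 0.392 in LW versus 0.224 and 0.364 in MS. For ENSSSCG00000048856 the desert values were 0.215 and 0.291 in LW versus 0.134 and 0.124 in MS.

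Over the 4 libraries ENSSSCG00000044834 was below ENSSSCG00000048856 on loop anchors in each, with a mean difference of -2.56 ± 0.239 (SD, n = 4) in fold over the genome share. It was also below it at gene ends and above it in gene deserts in each library. For these comparisons the exact sign-flip permutation p was 0.125, the smallest that 4 libraries allow, and 0.214 after adjustment over the 12 comparisons made. Against TTN its loop anchor value was lower in both LW and higher in both MS libraries, and the mean difference of -0.423 ± 1.04 (SD, n = 4) was smaller than its spread (exact sign-flip permutation p = 0.5).

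**Figure D4:**
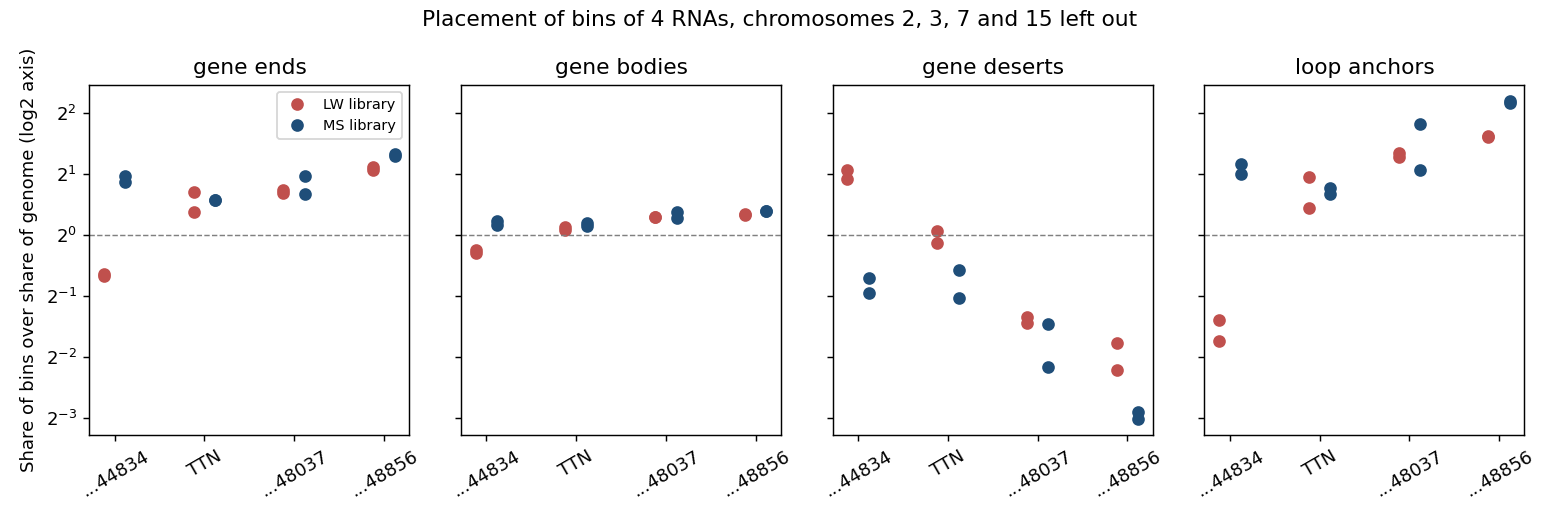
Points give the share of an RNA's bins at gene ends, in gene bodies, in gene deserts and on H3K27ac loop anchors over the share of the genome (log2 axis, dashed line at equality), per library in LW (red) and MS (blue), for ENSSSCG00000044834, TTN, ENSSSCG00000048037 and ENSSSCG00000048856. ENSSSCG00000044834 lies on opposite sides of the line in the 2 breeds in each of the 4 panels.

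Replicates of a breed listed some of the same bins, and the breeds shared few. Of the LW replicate 1 bins 22.3% were listed in LW replicate 2, and 26.0% of the LW replicate 2 bins in LW replicate 1. Between the MS libraries the shares were 10.3% and 10.6%. Given how much of the genome the other library covered, these overlaps were 2.64-fold in LW versus 5.43-fold in MS. Of the MS replicate 1 bins 6.33% and 5.77% were listed in LW replicates 1 and 2, which is 0.643 and 0.683 times their coverage. Of the MS replicate 2 bins 11.7% and 8.24% were listed there, 1.19 and 0.975 times their coverage. MS replicate 2 thus shared more of its bins with LW replicate 1 than with MS replicate 1, while the LW list was the longer one.

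In the 2276 windows of 1 Mb, Pearson's r between libraries was 0.76 within LW and 0.30 within MS. Between breeds it ranged from -0.20 to -0.01. Of all trans bins listed for the RNA in any library 85.6% were listed in 1 library. In both LW and neither MS library there were 48464 bins, and in both MS and neither LW library 3394.

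Only 300 bins on other chromosomes were listed in all 4 libraries, and they formed 11 regions on 8 chromosomes. A further 2 regions lay on chromosome 7. The strongest carried signals well over the median island peak of 1.05 to 1.19. At chr9:63365001-63414000, a gene desert 206 kb from MROH9, the highest signal was 4.36, 4.19, 4.32 and 5.25 in LW replicates 1 and 2, then MS replicates 1 and 2. At chr4:46434001-46464000 it was 3.42, 3.88, 3.65 and 4.06. Neither region separated the breeds.

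At chr17:63371001-63399000 the signal was 6.15 and 5.28 in LW versus 3.30 and 4.04 in MS. A further 3 regions lay close together on chromosome 5, at chr5:39909001-39938000, chr5:40068001-40097000 and chr5:40131001-40207000. In the widest of these, 76 kb, the signal was 3.71 and 3.34 in LW versus 3.03 and 2.64 in MS. None of these regions held a RefSeq gene, and none lay on a loop anchor. On chromosome 7 itself, chr7:24587001-24616000 had 5.42 and 5.77 in LW versus 4.71 and 3.85 in MS, likewise without a gene.

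Of the other 6 regions, shared at lower signal, 5 lay in genes. At chr14:94395001-94399000, the exception, in a gene desert 286 kb from ZWINT, the signal was 1.02 and 0.177 in LW versus 0.125 and 0.578 in MS. Those in genes included TGIF1, a homeobox repressor of TGF-beta signalling, with 1.18 and 1.77 in LW versus 1.65 and 1.48 in MS, and ZFP36L1, which binds AU-rich mRNA, with 1.08 and 1.05 in LW versus 1.23 and 1.04 in MS. Both were on loop anchors. The region in ZFP36L1 was also listed for the ZFP36L1 RNA in all 4 libraries, and that in TGIF1 for the RNA of MYOM1, a sarcomere M-band protein. ENSSSCG00000048037 was listed in all 4 libraries at the chromosome 9 desert and at the widest chromosome 5 region.

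**Figure D5:**
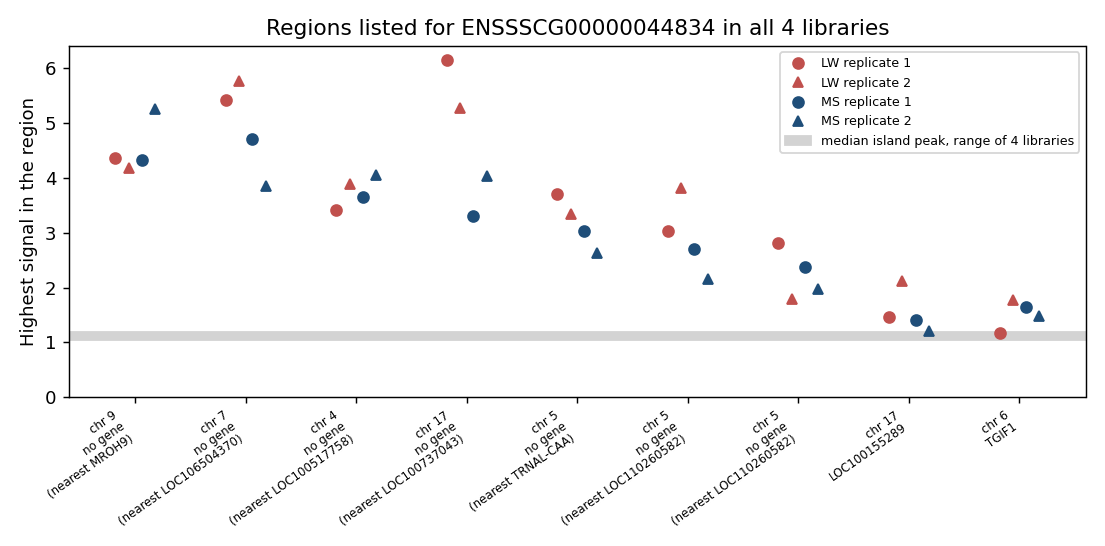
For 9 of the regions listed for ENSSSCG00000044834 in all 4 libraries, in order of their lowest peak, points give the highest signal in LW replicates 1 and 2 (red) and MS replicates 1 and 2 (blue), and the grey band the median island peak of the libraries. The first 7 regions hold no RefSeq gene and have every point above the band.

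The highest single signals were not shared by all libraries. At chr8:53773001-53807000, over LOC100519853 and LOC110262102, the peak reached 31.8 and 30.6 in the LW libraries and 18.5 in MS replicate 2, while the region was not listed in MS replicate 1. At chr9:23989001-24012000, without a gene, it was 45.9 in LW replicate 2 and was listed in no other library. At chr9:14968001-15008000, over LOC102160854, it was 7.47 in LW replicate 1 and 1.64 in LW replicate 2, and neither MS library had an entry. Over MMP11, a matrix metalloproteinase, and CHCHD10, a mitochondrial protein of the intermembrane space, on chromosome 14 it was 6.28 in LW replicate 1 and 4.85 in MS replicate 1, and the other libraries had no entry.

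For the comparison of breeds by window, bins were scaled to 100000 per library. This sets the totals equal but leaves the MS lists shorter, and of the windows tested 15.4% and 19.7% had no bin in the LW libraries versus 48.2% and 46.6% in the MS libraries. Of 1984 windows with a mean of at least 10 bins, 440 (22.2%) were higher in LW versus 100 (5.04%) higher in MS (limma with Benjamini-Hochberg adjusted p under 0.05). In 434 of the LW calls neither MS library had a bin, and in 74 of the MS calls neither LW library had one, so most of these windows reached the minimum through the breed in which they were listed. The calls are mainly presence against absence in lists of unequal length, and their numbers and gene content are given as a description. Where only the windows with a bin in all 4 libraries were tested, chosen after seeing the data, the balance turned, with 1 higher in LW versus 89 in MS. The median number of genes per window was 4 in the windows higher in LW, 13 in those higher in MS and 8 in all windows tested. On chromosome 12, 14 of 62 windows were higher in MS and 1 in LW.

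The windows of smallest p higher in LW lay on chromosomes 10, 1, 15, 11 and 9. At chr15:91000001-92000000 there were 182 and 165 bins in LW versus 0 in both MS libraries. At chr11:33000001-34000000 there were 185 and 168 bins in LW versus 0 in both MS libraries. Of the windows higher in MS, chr12:54000001-55000000 was listed in all 4 libraries, with 86 and 77 bins in LW versus 102 and 92 in MS, so that it held more bins in MS although the whole MS list was shorter. At chr17:28000001-29000000 there were 53 and 52 bins in MS and 0 in both LW libraries. The limma adjusted p was 0.00405 for each of these windows alike. Those with 0 bins in both libraries of a breed reached the minimum through the other breed. For them this p describes presence in the lists and is no further support. In 5-Mb windows, chosen after seeing the data, 20 were higher in LW versus 10 in MS. With quantile normalization the split was 321 to 282. The count higher in MS was 32 without LW replicate 1 and 31 without LW replicate 2.

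Among the protein-coding genes called as different between the breeds, those higher in LW were longer than those higher in MS. With bins counted in the gene and 5 kb around it, 355 of 3249 genes (10.9%) were higher in LW versus 223 (6.86%) higher in MS (limma, Benjamini-Hochberg adjusted p under 0.05). None of the 355 had a bin in an MS library, and 219 of the 223 had none in an LW library. These genes too reached the minimum of 5 bins on average through the breed in which they were listed, so the counts and lengths describe presence in the lists. The median length was 227 kb for the genes higher in LW, 42.1 kb for those higher in MS and 86.8 kb for all genes tested. Because bins were scaled to the total of each library, a call took more bins in LW than in MS. At similar p-values KIAA0586 had 72 and 66 bins in LW, and ATF4 had 14 and 14 in MS. A short gene holds few 1-kb bins, so the length difference cannot be told apart from this scaling. With the replicate number as a block limma called 0 genes in either direction, with 317 and 299 at an unadjusted p under 0.05. The breed with more called genes turned with the processing, since a pseudocount of 10 gave 71 in LW versus 134 in MS, no filter 172 versus 215, summed signal 198 versus 203 and islands in place of bins, chosen after seeing the data, 118 versus 186. It turned with single libraries as well. Without LW replicate 1 there were 874 genes higher in LW versus 89 in MS, and without LW replicate 2 there were 1078 versus 35. Without MS replicate 1 there were 317 in LW versus 759 in MS, and without MS replicate 2 there were 354 versus 922.

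The 5 genes of smallest p higher in LW were NEGR1, CNTNAP2, CSMD3, RALYL and ERC2. CNTNAP2, a neurexin-family adhesion protein, had 386 and 366 bins in LW, and NEGR1, a neuronal growth regulator, had 377 and 326. ERC2, a scaffold of the presynaptic active zone, had 216 and 198 bins. All 5 were without a bin in both MS libraries.

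The genes of smallest p higher in MS included TTC28, AXIN2, LOC110260827 and PPP4R1. AXIN2, a negative regulator of WNT signalling, had 38 and 43 bins in MS. PPP4R1, a regulatory subunit of protein phosphatase 4, had 29 and 30. None of these genes had a bin in an LW library. These genes were selected by p-value, and no call remained among the genes with the replicate block.

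As a list, the genes of muscle contraction held the RNA in each library, while the single genes varied between libraries. Of 24 sarcomere genes on other chromosomes, 13 and 6 had a bin in LW replicates 1 and 2 versus 4 and 5 in MS replicates 1 and 2, and none had one in all 4. Over all 18169 protein-coding genes 13.5% and 11.5% had a bin in LW versus 10.3% and 8.83% in MS, against 54.2% and 25.0% and 16.7% and 20.8% of the sarcomere genes. The covered share of the sarcomere genes was 20.6% and 10.4% in LW versus 5.18% and 5.97% in MS. Over all protein-coding genes it was 7.23% and 5.89% in LW versus 2.73% and 2.42% in MS. Both measures were thus higher for the sarcomere list than for all coding genes in each library, which was not tested. The lists were not matched for gene length. The neuronal list described below had a covered share of 18.4% and 18.8% in LW versus 0% and 4.14% in MS. In LW replicate 2 it thus stood above the sarcomere list. The most bins were in TTN, 92 and 57 in LW versus 28 and 0 in MS. ACTN2, a Z-disc cross-linker, had 34 and 23 bins in LW versus 0 in both MS libraries, and CKM, muscle creatine kinase, 23 and 23 in LW versus 0 in both MS libraries. ACTA1, skeletal actin, and MYLPF, a fast-fibre myosin light chain, each had 14 bins in LW replicate 1 and 14 in MS replicate 2 and none in the other libraries.

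Other gene lists were described in the same way. Among 76 ribosomal protein genes, which are short and active in all cells, 2.63% and 5.26% had a bin in LW versus 11.8% and 10.5% in MS. Of 12 neuronal genes 4 and 3 had a bin in LW versus 0 and 3 in MS. Of 14 liver genes between 1 and 2 had a bin in each library. These counts were not tested.

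Few coding genes were listed in all libraries. Of 9358 protein-coding genes of at least 20 kb, 44 (0.470%) had a bin of the RNA in all 4 libraries. The highest coverage in the library where it was lowest was 29.8% for LOC100155289 on chromosome 17, with 35.1% and 38.3% in LW versus 29.8% in both MS libraries. GEN1, a Holliday junction resolvase, had 29.0% and 41.9% in LW versus 35.5% and 32.3% in MS. FAM117A, TFDP2, JAKMIP2, IFT74, TRPM6, SLC35F4, CTTNBP2 and SORCS3 followed, with 16.1% down to 6.82% in their lowest library. TFDP2 is a partner of E2F cell cycle factors, and had 15.1% and 15.6% in LW versus 18.3% and 12.9% in MS.

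TTN was the RNA whose distribution was most like it. Among the 5 RNAs listed in all libraries with at least 1000 trans bins in each, Pearson's r of bins per 1-Mb window averaged 0.31 for TTN, with 0.30 and 0.20 in LW versus 0.39 and 0.35 in MS over 2135 windows. For ENSSSCG00000048037 it was -0.33 and -0.32 in LW versus 0.29 and 0.26 in MS, and for ENSSSCG00000048856 -0.24 and -0.24 in LW versus 0.20 and 0.12 in MS. NEB stood at -0.18 in both LW libraries and 0.06 and 0.07 in MS. Only TTN was above 0 in LW, and these are descriptions over windows of the same library.

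The bins listed for both RNAs of a pair were set against the coverage of the other RNA. Within a library 10.0% and 8.40% of the LW bins and 25.0% and 21.1% of the MS bins of ENSSSCG00000044834 were also bins of TTN, or 20.9% and 18.3% and 5.93% and 5.93% of the TTN bins. This was 2.14, 2.18, 3.00 and 3.08 times the coverage of TTN. For ENSSSCG00000048037 the overlap was 0.595 and 0.644 times its coverage in LW versus 2.69 and 2.33 times in MS. For ENSSSCG00000048856 it was 0.507 and 0.523 times in LW versus 3.10 and 2.65 times in MS.

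At the gene itself, H3K27ac loops touched the upper end of the interval alone, which is the 5′ end of a minus-strand RNA. With an anchor within 1 kb of an end LW replicate 1 had 2 loops, LW replicate 2 and MS replicate 2 had 1 each, and MS replicate 1 had 0. In LW replicate 1 the anchor at chr7:10920001-10925000 was looped to chr7:10910001-10915000 with a −log10 FDR of 4.73 and to chr7:10450001-10455000, 470 kb away, with 2.90. In LW replicate 2 the anchors chr7:10910001-10915000 and chr7:10925001-10930000 were joined with 4.31. In MS replicate 2 the adjacent anchors chr7:10920001-10925000 and chr7:10925001-10930000 were joined with 2.52. No loop at an end was found in more than 1 library.

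More loops lay inside the gene. An anchor in the interval was held by 11 and 8 loops in LW versus 17 and 14 in MS. The libraries held 57028 and 43282 loops in LW versus 45061 and 33353 in MS. At the interval there were 33 different loops in all, of which 16 were found in LW, 24 in MS and 7 in both. The anchor chr7:10835001-10840000, within LOC106504325, carried the most loops in LW replicate 2 and both MS libraries, with 6, 9 and 10. In LW replicate 1 chr7:10910001-10915000 carried 4, and chr7:10835001-10840000 carried as many. Of all anchors of the library, 15.8% and 6.95% in LW versus 1.24% and 1.42% in MS carried as many loops as the top anchor here.

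The 2 loops called in all 4 libraries both started from chr7:10835001-10840000. The loop to chr7:10720001-10725000 had a −log10 FDR of 10.9, 4.10, 5.78 and 5.38 in LW replicates 1 and 2, then MS replicates 1 and 2. The loop to chr7:10645001-10650000, in the lncRNA gene LOC106507125, had 3.39, 6.39, 5.32 and 13.4. A loop of 385 kb to chr7:10450001-10455000, also in LOC106507125, had 21.3 in LW replicate 2 and 10.6 and 25.7 in MS and was not called in LW replicate 1. A loop of 525 kb to chr7:11360001-11365000, in JARID2, was called in LW replicate 2 and MS replicate 2 with 2.39 and 2.21. Other loops from the interval to JARID2 were called in the remaining libraries. In LW replicate 1 the same anchor was looped to chr7:11355001-11360000 with 3.68. In MS replicate 1 such loops had 2.89, 2.15 and 2.00. The loop lists end at an FDR of 0.01, and the values from 2.00 to 2.39 lie close to that limit. The locus thus carried acetylated contacts in both breeds, while the RNA itself was not listed there.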

How the data were processed

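The deposited lists of 4 GRID-seq and 4 H3K27ac BL-HiChIP libraries were used, with groups and replicates from the sample titles. The submitters' processing notes name Trim Galore 0.4.5, Bowtie2 2.2.5, SAMtools 1.9 and MACS2 2.1.2, and the study gives mapping to Sscrofa11.1 and FitHiChIP loops on 5-kb fragments. The deposited GRID-seq lists have no column names. Their whole numbers, constant for an RNA, were taken for the count of its reads that the authors kept after splitting reads at the linker and mapping both ends. Their decimal values, 1 for each bin, were taken for a signal from which the authors had removed background, and the smallest deposited signal was 0.02. The deposited loops come with 1 value each, taken for an adjusted p-value (FDR). A bin that is not listed is below the authors' cutoff and is not shown to lack the RNA.

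Reads on listed RNAs numbered 7172517 to 9943666 per library, and with 906421 or more reads for this RNA the counting error is small beside the difference between breeds. Bins on the Y chromosome were left out, and the RNA had none there. Genes were placed by RefSeq on Sscrofa11.1, whose table gives no strand and holds no entry under this Ensembl identifier. Reads of the 308 named RNAs present in all 4 libraries were compared with edgeR 4.0.16 (TMM, quasi-likelihood), and bins per 100000 with limma 3.58.1 on the log2(value + 1) scale in R 4.3.3, with Benjamini-Hochberg adjustment. A fold change on that scale depends on the added 1, so bins are printed. Single values were compared by two-sided exact permutation over libraries, with a smallest p of 0.333 between breeds. Both model fits were tested on simulated data. The values simulated for limma held no absence from a list, so this does not bear on calls of presence against absence. Alternatives covered normalization, DESeq2 1.42.0, pseudocounts of 0.1 and 10, filters, window sizes, signal cutoffs, a replicate block and leaving out each library. Places, overlaps and figures were computed with Python 3.11.15, numpy 2.4.6, pandas 2.3.3, scipy 1.17.1, statsmodels 0.14.6 and matplotlib 3.10.9.

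The RNA was chosen by its trans bins, and the RNA and gene lists were chosen with earlier results of these data known. The genes and windows named are the 5 of smallest p in each direction past an adjusted p of 0.05 with no overlap between breeds, the 10 coding genes of at least 20 kb with the highest coverage in their lowest library, the RNAs most like it by Pearson's r over 1-Mb windows, and members of the fixed lists. Regions in all 4 libraries, the highest islands and loops inside the gene were described after their values were seen. Results for some of the genes these rules name are not reported here. Sequences were not printed, since none was used here.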

Additional observations from a re-analysis of the deposited data

Results flagged for a closer look

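The share of bins over the share of the genome differed from that of TTN in opposite directions in the breeds at 3 kinds of place, with every LW library on one side and every MS library on the other. The difference between the breeds in these contrasts was not tested. At gene ends ENSSSCG00000044834 minus TTN was -0.825 on average in LW and 0.395 in MS. On loop anchors it was -1.30 in LW and 0.455 in MS. In gene bodies it was -0.246 in LW and 0.0144 in MS, the last being close to 0. In gene deserts, where both LW libraries were above TTN, the MS libraries were close to TTN with a mean of -0.0142. Groups of 2 libraries are too small for a test of outlying samples.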

How the results depend on the processing

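Of 126 alternative values for 17 results, 84 were taken as unchanged. For reads this meant the same side of the threshold, and for counts of windows and genes a limited ratio to the main count. By that ratio 321 windows higher in LW with quantile normalization, against 440, were taken as unchanged. The other results had to stay within the spread. Which breed had more calls did turn. For genes, 355 in LW versus 223 in MS became 71 versus 134 with a pseudocount of 10, 172 versus 215 with no filter, 198 versus 203 by summed signal, 118 versus 186 by islands, 317 versus 759 without MS replicate 1 and 354 versus 922 without MS replicate 2. For windows, 440 versus 100 became 1 versus 89 where all 4 libraries had a bin. The read difference kept its adjusted call under all alternatives, between -0.88 and -0.72 (log2) and -0.86 to -0.84 with a library left out. For windows higher in LW, 500-kb windows gave 1090 and 5-Mb windows 20. For windows higher in MS, quantile normalization gave 282, 500-kb windows 178 and 5-Mb windows 10. With a library left out the counts ranged from 352 to 459 in LW and from 31 to 99 in MS. For genes higher in LW, a pseudocount of 0.1 gave 546. Without single libraries the counts ranged from 317 to 1078 in LW and from 35 to 922 in MS.

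The replicate numbers of the breeds are shared, but no label ties them to a batch or litter. Same-numbered libraries deviated together in reads (correlation 0.94 over 308 RNAs) and not in windows (-0.05). With the replicate block the read difference was -0.85, the windows called were 358 in LW and 87 in MS, and the genes called by limma were 0 in both directions, with 317 and 299 at an unadjusted p under 0.05.

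The ratio of LW to MS bins was 5.37 by summed signal and 3.83 by islands, and 4.40 to 5.13 with a library left out. The share of bins in either LW library that both listed was 13.6%, 16.7% in 10-kb bins and 6.99% with equal numbers of islands. Between breeds it was 1.40% and ranged from 1.08% to 1.72% with a library left out. For LW, gene deserts stood at 2.73 times the genome share beyond 500 kb, 1.82 with protein-coding genes alone and 2.23 with equal numbers of islands, gene ends at 0.637 within 5 kb, 0.558 with protein-coding genes alone, 0.665 by summed signal and 0.535 with equal numbers of islands, and loop anchors at 0.207 with equal numbers of islands. For MS, gene deserts stood at 0.233 beyond 500 kb and 0.584 with protein-coding genes alone, gene ends at 2.12 with protein-coding genes alone and 2.55 by summed signal, and loop anchors at 2.48 for loops called in both libraries and 2.67 by summed signal. Leaving out a library gave 1.90 to 2.13, 0.617 to 0.633 and 0.303 to 0.377 for deserts, ends and anchors in LW and 0.504 to 0.565, 1.79 to 1.95 and 1.93 to 2.21 in MS. Loops at the gene ends in MS were 2 within 5 kb and 0 at an FDR of 0.001 or less. The causes of these changes were not tested. With 2 libraries per breed and a list that ends at the authors' cutoff, absence of a bin is the weakest of these readings.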
